A study of Mus musculus with 12 samples.

Results

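Dhrs3, a retinal reductase, and 8 further genes of retinoic acid signalling were followed in C57MG cells, a line derived from mouse mammary epithelium, after stimulation with Rspo2 and Wnt3a. The members were all non-control probes on the arrays whose gene name was Dhrs3, Rara, Rarb, Rarg, Crabp1, Crabp2, Aldh1a1, Aldh1a2 or Aldh1a3. These were 9 of 21589 gene symbols and 13 of 41174 probes on the array, and 9 of the probes, for 6 genes, were detected. Dhrs3 was chosen by its log2 interaction in these same arrays, the effect of Rspo2 with Wnt3a minus its effect without, so its values are given as a description and were not tested. The other genes were picked for their place in the pathway, and were tested in one model across all detected probes. Detected means well above background, in the scanner software's own flag, on all 3 arrays of at least 1 group.

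Cells were seeded in serum and insulin, moved to plain DMEM, and kept for 24 h in 1 of 4 conditions, with 3 monolayers each. The control group received bovine serum albumin (BSA), the Rspo2 group 100 ng/ml recombinant human R-spondin2, the Wnt3a group 100 ng/ml recombinant mouse Wnt3a, and the combination group both proteins at those doses. The labels name no added retinoid in any group, and all groups were kept without serum. Every sample came from 1 cell line, and the labels call the 3 arrays of a group biological replicates, so p-values measure the spread between separate monolayers of that line.

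Retinoic acid is made from retinol (vitamin A) by a pair of oxidations. Retinol dehydrogenases such as Rdh10 form retinal, and the retinal dehydrogenases Aldh1a1, Aldh1a2 and Aldh1a3 turn retinal into retinoic acid. Dhrs3 works in the opposite direction to Rdh10 and reduces retinal to retinol, which limits the supply for retinoic acid. Crabp1 and Crabp2 carry retinoic acid inside the cell, the receptors Rara, Rarb and Rarg bind DNA as partners of retinoid X receptors, and the Cyp26 enzymes break retinoic acid down. Rspo2 raises the response of cells to Wnt proteins at the cell surface.

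Values are log2 intensities relative to the 75th percentile of the same array, so 0 is the level of that percentile. Between 51.3% and 64.2% of probes were well above background on an array, and BSA replicate 1 had the highest share. Axin2, a widely used target of Wnt signalling, was at background on the 9 arrays outside the combination group. It stood well above it on the 3 combination arrays. Axin2 thus entered the test only through the group in which it was high, so its direction is partly set by the filter. Its fitted log2 differences from BSA and Wnt3a were 4.92 and 3.82 (limma, adjusted p = 1.14e-05 and 0.000372). Here and below, adjusted p-values are for fitted differences and not for bounds. As bounds, Axin2 in the combination was at least 9.39-fold over BSA and at least 11.8-fold over Wnt3a. Such a bound, used here wherever a group had no array above background, sets the combination's mean against the higher of the dim probe's own signal and the lowest signal that was well above background on each array of the dim group. Of 6 epithelial marker genes the keratin gene Krt8 was well above background on all 12 arrays, at no more than 97.7 intensity units, Krt7 on 9, Krt18 on 3, Krt19 and Epcam on 2 each and Cdh1 on none. Of 6 myoepithelial or basal markers Krt14, Trp63 and Acta2 were so on all 12 arrays, Krt5 on 10, Cnn1 on 4 and Myh11 on 2. Of 6 mesenchymal markers 5 were so on all 12, among them Vim and Col1a1. Among markers of other cell types, the endothelial gene Cdh5 and the leukocyte gene Cd68 were well above background on all 12 arrays, Ptprc and Pecam1 on 1 array, and none of 3 adipocyte genes on all 12. The arrays thus held some markers of each of these 3 classes, and the epithelial marker Cdh1 was at background.

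Dhrs3 was lowest in the combination group on both of its probes. On the brighter probe (A_52_P387237) the 3 BSA arrays read 0.55, 0.58 and 0.51, and the 3 Rspo2 arrays read 0.79, 0.74 and 0.98. The Wnt3a arrays read 0.17, 0.19 and 0.06, and the combination arrays −1.44, −1.56 and −1.46. The groups did not overlap and stood in the order Rspo2, BSA, Wnt3a, combination, all with Dhrs3 well above background. In unscaled intensity the combination arrays lay between 326 and 386 units and the BSA arrays between 1389.6 and 1714. The difference between combination and BSA was −2.03 ± 0.08 (SE, 3 arrays each), a 4.09-fold lower level. In RNA from whole cultures, fewer cells with Dhrs3 and less Dhrs3 RNA per cell cannot be told apart.

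Each single treatment gave a smaller difference. Dhrs3 with Wnt3a alone differed from BSA by −0.40 ± 0.08 (SE), and with Rspo2 alone by 0.29 ± 0.08 in the opposite direction. Adding Rspo2 to Wnt3a changed the level by −1.63 ± 0.08, and adding Wnt3a to Rspo2 by −2.32 ± 0.08. The interaction, the value Dhrs3 was chosen by, was −1.92 ± 0.11. Every array with Rspo2 alone lay above every BSA array, while every array with both proteins lay below every Wnt3a array.

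The dimmer Dhrs3 probe (A_51_P282947) gave the same order. Its BSA arrays read −0.96, −0.96 and −0.85, its Rspo2 arrays −0.78, −0.65 and −0.43, its Wnt3a arrays −1.25, −1.19 and −1.31, and its combination arrays −2.88, −2.93 and −2.69. The combination differed from BSA by −1.91 ± 0.10 (SE) and from Wnt3a by −1.58 ± 0.10, and the interaction was −1.88 ± 0.14. The values of the 2 probes had a Pearson r of 0.996 over the 12 arrays, as a description of 2 probes of 1 gene on shared arrays. Over all alternatives to the analysis the interaction of the brighter probe lay between −1.97 and −1.48, with the same sign in all 25. As Dhrs3 was chosen by this value in the same arrays, that range is a description only. The Wnt3a minus BSA difference of the dimmer probe ran from −0.54 to −0.08.

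**Figure D1:**
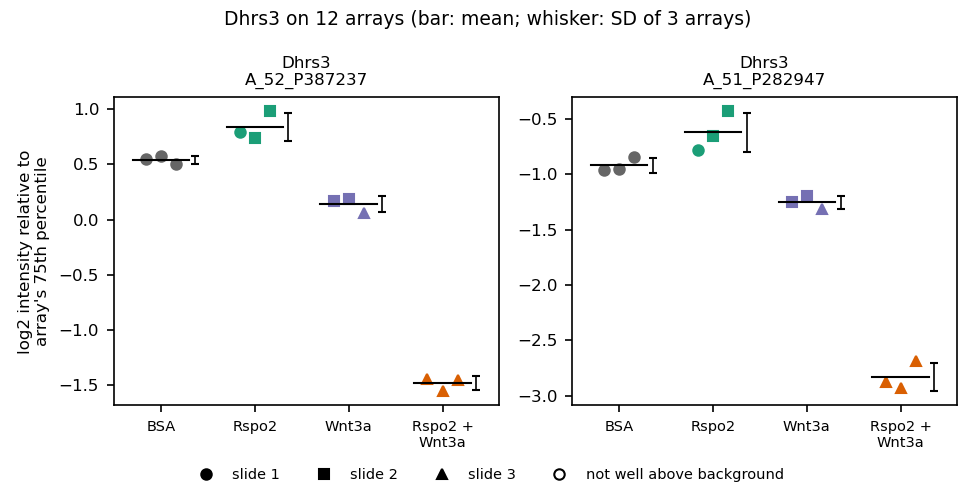
Each point is 1 of the 12 arrays, with the log2 intensity relative to the array's 75th percentile on the vertical axis and the treatment group on the horizontal axis, for the 2 Dhrs3 probes. Marker shapes give the slide, bars the group mean and whiskers the SD of 3 arrays. On both probes the combination lies lowest, with means of −1.48 and −2.83 against 0.55 and −0.92 in BSA.

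The arrays were hybridized on 3 slides that do not balance the groups: all BSA arrays shared slide 1 with Rspo2 replicate 1, the remaining Rspo2 arrays shared slide 2 with Wnt3a replicates 1 and 2, and all combination arrays shared slide 3 with Wnt3a replicate 3. Within slide 3 the combination minus Wnt3a difference of Dhrs3 was −1.55 on the brighter probe and −1.52 on the dimmer one. Within slide 1 the single Rspo2 array lay 0.25 above the BSA mean on the brighter probe and 0.14 above on the dimmer one. BSA shared a slide with neither Wnt3a nor the combination. When slide was added to the model, the Dhrs3 interaction was −1.80 on the brighter probe and −1.66 on the dimmer.

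Dhrs3 lies at chr4:144892534-144928209 (GRCm38.p6). RefSeq gives 3 start sites for it with promoter windows from 250 bases before to 50 after the start. Retinoic acid receptor binding letters, searched on both strands, were AGGTCA and its close forms AGTTCA and also GGGTCA and also GGTTCA. None of the 3 Dhrs3 windows holds any of these, while 43.7% of 32851 promoter windows do. Windows 2 and 3 overlap and share 1 copy of CTTTGA, letters that Tcf factors of the Wnt pathway bind, at −45 to −40 from the second start and −105 to −100 from the third. CTTTGA, on either strand, is found in 16% of all windows. It is not particular to Dhrs3: 1 window of the member Aldh1a1 holds 3 copies. A window of Stra6, a retinol transporter gene outside the members, holds 1 copy. The 30 bases around the Dhrs3 copy are shown because Dhrs3 had the largest difference among the members, with the searched letters in capitals (chr4:144893020-144893049, plus strand).
Dhrs3: gttaatcttgcaCTTTGAaaccgcggactg

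The 5 genes whose levels ran closest to the brighter Dhrs3 probe were 1700016M24Rik (Pearson r = 0.994), Lman1l (0.993), Akr1c14 (0.992), 4931408D14Rik (0.989) and the transcript BF642829 (0.987), among 18708 named probes well above background on all 12 arrays. Akr1c14 encodes an aldo-keto reductase that acts on hydroxysteroids. Its group means were −1.30 in BSA, −1.05 with Rspo2, −1.63 with Wnt3a and −2.97 with both. These correlations describe the 4 group levels on 12 shared arrays.

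Among the receptors, Rara fell and Rarb rose in the combination, each by less than 2-fold. Rara (1 probe) read −0.77, −0.67 and −0.64 in BSA, −0.65, −0.77 and −0.59 with Rspo2, −0.72, −1.20 and −0.92 with Wnt3a, and −1.25, −1.19 and −1.42 with both. The combination arrays lay below every BSA and every Rspo2 array and overlapped with Wnt3a. Rara differed between combination and BSA by −0.59 ± 0.12 (SE; adjusted p = 0.00272 in limma) and between combination and Rspo2 by −0.62 ± 0.12 (adjusted p = 0.00472). Wnt3a alone differed from BSA by −0.25 ± 0.12 (adjusted p = 0.123), and the Rara interaction of −0.36 ± 0.17 did not pass (adjusted p = 0.173).

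Rarb, itself a known target gene of retinoic acid, read −3.39, −3.57 and −3.50 in BSA on the probe spotted 10 times per array (A_51_P202440). It read −3.68, −3.57 and −3.44 with Rspo2, −3.43, −3.26 and −3.41 with Wnt3a, and −2.86, −2.96 and −2.98 with both. All combination arrays lay above all others. Rarb was higher in the combination than in BSA by 0.55 ± 0.09 (SE; adjusted p = 0.000857), than with Wnt3a by 0.43 ± 0.09 (adjusted p = 0.0197) and than with Rspo2 by 0.63 ± 0.09 (adjusted p = 0.000696). The Rarb interaction was 0.51 ± 0.12 with an adjusted p of 0.0338. It passed in 7 of 25 alternative analyses, with adjusted p from 0.0109 to 0.929, and the comparison with Wnt3a passed in 16 of 27, from 0.00904 to 1. A second Rarb probe (A_52_P495759) was dim, well above background on 1, 2, 3 and 3 arrays of the BSA, Rspo2, Wnt3a and combination groups. Its combination against BSA difference was 0.28 ± 0.19 (adjusted p = 0.283), with a 95% interval of −0.15 to 0.70 that includes the value of the first probe.

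The promoter window of Rarb is shown because it is the only one among those of the members that holds a pair of these receptor letters as a direct repeat 5 bases apart, an arrangement 0.0974% of all windows hold. Outside the members the window of Cyp26a1 holds one too, and the Cyp26a1 probe was well above background on BSA replicate 1 alone. RefSeq windows were found for 7 of the 9 members, 14 windows in all, and none held a direct repeat 1 or 2 bases apart (0.222% and 0.268% of all windows). Single copies were counted inside repeats too, and Rarb has 3 of them. The 250 bases before its start lie at chr14:16575477-16575726 on the minus strand, with the repeated letters, at −53 to −48 and −42 to −37, in capitals.
Rarb: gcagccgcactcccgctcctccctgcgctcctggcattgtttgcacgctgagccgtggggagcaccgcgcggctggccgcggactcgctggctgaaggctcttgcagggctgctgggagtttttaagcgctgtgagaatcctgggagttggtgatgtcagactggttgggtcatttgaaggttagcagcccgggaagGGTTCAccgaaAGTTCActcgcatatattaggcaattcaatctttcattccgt

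Rarg passed the test in no comparison on either probe. On A_51_P372853 its levels ran from 0.35 to 0.69 in BSA and from 0.30 to 0.47 in the combination, and on A_51_P372858 from 0.45 to 0.57 and from 0.23 to 0.42. The combination against BSA differences were −0.16 ± 0.10 (SE; 95% interval −0.39 to 0.07; adjusted p = 0.239) and −0.21 ± 0.09 (−0.40 to −0.02; adjusted p = 0.0768). Both intervals lie within a 2-fold change of Rarg in either direction.

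Crabp2, which brings retinoic acid to its receptors, was highest with Rspo2 alone. It read −3.24, −3.18 and −3.12 in BSA, −2.55, −2.67 and −2.18 with Rspo2, −2.78, −2.92 and −2.75 with Wnt3a, and −3.02, −3.34 and −3.34 with both. Every Rspo2 array lay above every array of the other groups, and the combination overlapped with BSA. Rspo2 alone raised Crabp2 by 0.71 ± 0.13 (SE; 1.64-fold; adjusted p = 0.0131; from 0.00558 to 0.715 over 27 alternatives), whereas Wnt3a alone differed from BSA by 0.36 ± 0.13 (adjusted p = 0.0544). Between combination and BSA the difference was −0.05 ± 0.13 (95% interval −0.34 to 0.23; adjusted p = 0.779), and the combination minus Rspo2 difference was −0.77 ± 0.13 (adjusted p = 0.00236). The Crabp2 interaction was −1.13 ± 0.18 (adjusted p = 0.00741, and 0.124 with slide in the model). The fitted effect of Rspo2 thus differed 2.19-fold with and without Wnt3a. The 95% interval of the interaction, −1.54 to −0.72, includes changes under 2-fold. The interaction passed in 23 of 25 alternatives, with adjusted p from 0.00343 to 0.908. Without Rspo2 replicate 3 it was −0.99, just under 2-fold. Within slide 1 the Rspo2 array lay 0.63 above BSA, and within slide 3 the combination differed from Wnt3a by −0.48.

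Crabp1 was not detected. Its only array well above background was BSA replicate 1, at 31.4 intensity units, and the other 11 read between 3.28 and 13.2. BSA replicate 1 was also the array with the most probes above background.

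Of the retinal dehydrogenases only Aldh1a1 was detected, and it was dim. It read −4.54, −4.94 and −4.74 in BSA, −4.42, −4.83 and −4.95 with Rspo2, −4.39, −3.76 and −4.22 with Wnt3a, and −3.76, −3.81 and −3.80 with both. It was well above background on 1 array of the BSA group, 1 of the Rspo2 group and all arrays of the other groups, so it entered the test through the groups in which it was high. Aldh1a1 was higher than in BSA by 0.62 ± 0.18 (SE) under Wnt3a (adjusted p = 0.0225) and by 0.95 ± 0.18 in the combination (adjusted p = 0.00192), and higher with both than with Rspo2 by 0.94 ± 0.18 (adjusted p = 0.00431). Rspo2 added 0.34 ± 0.18 on top of Wnt3a, which did not pass (adjusted p = 0.343). The probe for Aldh1a2 and both probes for Aldh1a3 were above background on none of the 12 arrays, with intensities of 3.62 to 15.3. Of 2 further genes listed for this step, Aldh8a1 was tested and was higher in the combination than in BSA by 0.45 ± 0.16 (adjusted p = 0.0497), and none of 3 carotenoid cleavage genes was detected.

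Over all members other than Dhrs3, 7 of 11 probes were tested. Probes that passed at an adjusted p under 0.05 were, with the share of all 22751 detected probes that passed in parentheses, 1 for Rspo2 against BSA (16.8%), 1 for Wnt3a against BSA (31.5%), 3 for the combination against BSA (39.2%), 1 for the combination against Wnt3a (4.27%), 4 for the combination against Rspo2 (16.5%) and 2 for the interaction (8.90%). Aldh1a1 was the pass for Wnt3a against BSA and 1 of those for the combination against BSA and against Rspo2. It entered the test through the groups in which it was high, so its direction in these counts is partly set by the filter. With a change of at least 2-fold required as well, the single probe called was that of Crabp2 in the interaction, where 1.93% of all probes were called and 0.651% were called lower. None was called in the other comparisons, where 0.721%, 2.52%, 5.08%, 0.747% and 2.67% of all probes were called, in the order above. At an unadjusted limma p under 0.05 the count at 2-fold was also 0 in each of these 5, as it was by the methods' t-test, since the largest difference was 0.95. With slide in the model all 12 passing differences of these members kept their sign and 0 kept an adjusted p under 0.05. The share of all passing probes that kept it was not computed. Over all probes the calls at 2-fold were 164, 573, 1155, 170, 608 and 438, in the order of comparisons above. With slide in the model they were 65, 146, 500, 162, 491 and 151. The part of slide in the member differences was not tested beyond that.

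**Figure D2:**
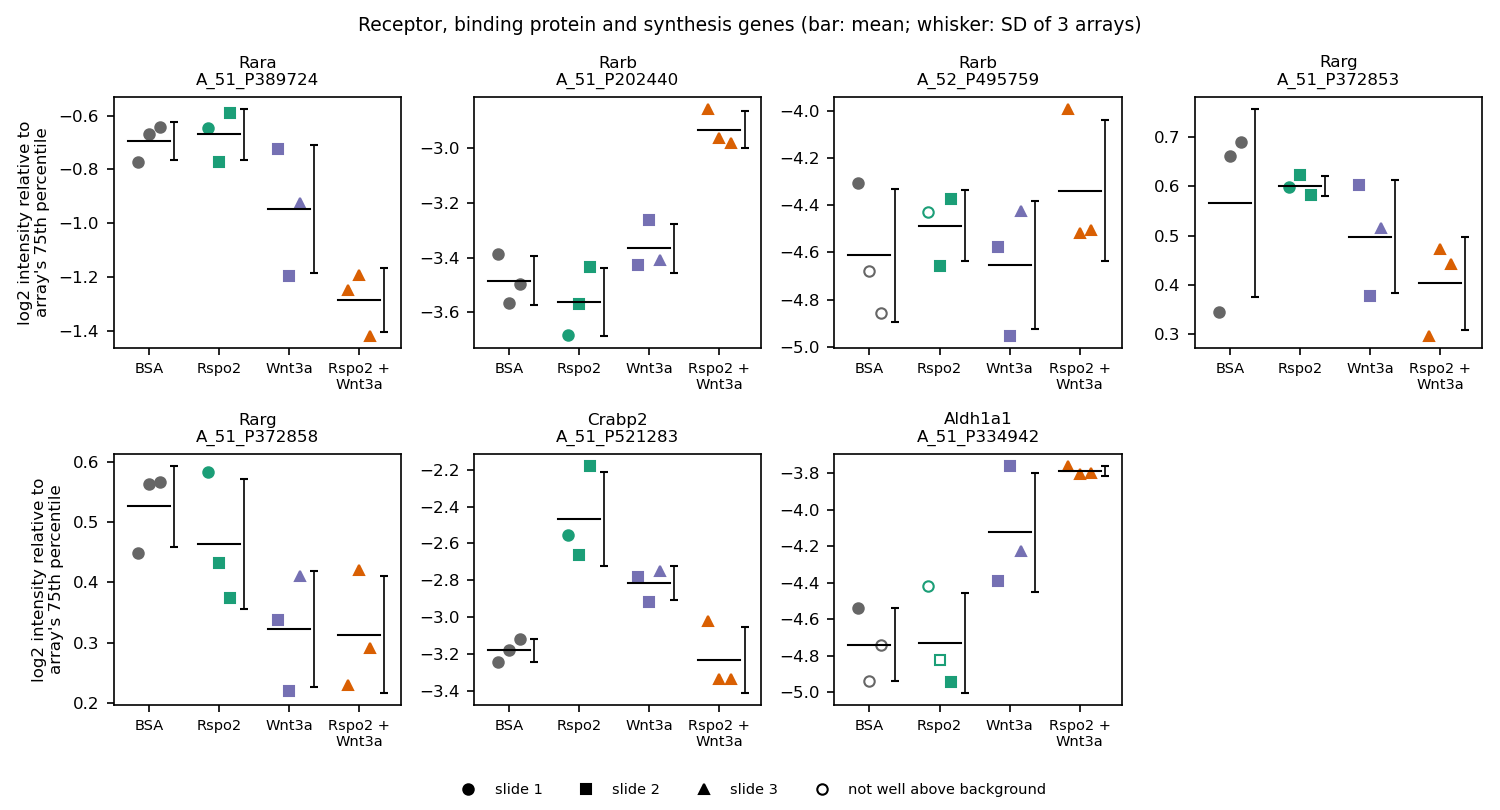
Each panel is 1 probe of Rara, Rarb, Rarg, Crabp2 or Aldh1a1, with the log2 intensity relative to the array's 75th percentile against treatment group and vertical scales that differ between panels. Points are single arrays, open where the probe was not well above background, with shapes for the 3 slides, bars for means and whiskers for the SD of 3 arrays. Crabp2 stands highest with Rspo2 alone, and the first Rarb probe and Aldh1a1 have their highest means in the combination.

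A list of 52 further genes of retinoid uptake, conversion, breakdown and response placed the members in their pathway. Probes were found for 51, and 30 were tested by their brightest detected probe. At an adjusted p under 0.05, 4 of the 30 passed for Rspo2 against BSA (2 higher, 2 lower), 8 for Wnt3a against BSA (5 and 3), 15 for the combination against BSA (11 and 4), 5 for the combination against Wnt3a (5 and 0), 10 for the combination against Rspo2 (7 and 3) and 6 for the interaction (4 and 2). Across all detected probes the shares that passed higher and lower were 10.9% and 5.92%, 18.3% and 13.2%, 21.9% and 17.3%, 1.78% and 2.49%, 6.69% and 9.81%, and 3.58% and 5.31%, in the same order. With slide in the model all 48 passing differences of list genes kept their sign and 10 kept an adjusted p under 0.05. The share of all passing probes that kept it was not computed. The median difference of the 30 was 0.15 for the combination against BSA, beside 0.04 over all probes, and −0.02 for the combination against Wnt3a, beside 0.00. Stra6, Cyp26b1 and Enpp2 were called at 2-fold in each of the 3 comparisons of the combination with another group and in the interaction, all higher in the combination (1.28%, 0.413%, 0.976% and 1.27% of all probes were called higher). The probes of Stra6 and Cyp26b1 passed the detection filter only through the combination, where they are high, so their direction in this count is partly set by the filter. Among probes above background on all 12 arrays Enpp2 alone was called. None was called for either single treatment, also at an unadjusted limma p under 0.05.

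Cyp26b1, which breaks down retinoic acid, was well above background on all 3 arrays in the combination alone. Its intensities were 33.2, 22.2 and 9.18 units in BSA, 11.96, 7.40 and 8.47 with Rspo2, 21.1, 19.1 and 16.9 with Wnt3a, and 79.1, 93.4 and 127 with both. Besides the combination arrays only BSA replicate 1 was well above background, so Cyp26b1 entered the test through the group in which it was high. The combination was at least 4.03-fold over Wnt3a (adjusted p = 0.0114) and at least 3.40-fold over Rspo2 (adjusted p = 0.000223). Against BSA 1 of 3 arrays measured it, and the combination arrays lay above all 3. The size of an interaction cannot be read where neither single treatment was above background. The Cyp26a1 probe was well above background on BSA replicate 1 alone.

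Stra6, a retinol transporter of the cell membrane and a known retinoic acid response gene, showed a like pattern. Its intensities were 58.7, 9.74 and 12.8 units in BSA, 12.9, 7.24 and 10.6 with Rspo2, 10.1, 5.70 and 7.06 with Wnt3a, and 113, 82.9 and 73.5 with both. The combination arrays were above all others, and outside them only BSA replicate 1 was well above background. The combination was at least 3.68-fold over Wnt3a (adjusted p = 0.00911) and at least 3.06-fold over Rspo2 (adjusted p = 0.00561). Stra6 too entered the test only through the combination. Its difference from BSA was 2.29 ± 0.59 (SE; adjusted p = 0.0108) with 1 of 3 BSA arrays above background, 3.16 without BSA replicate 1 and 1.73 without BSA replicate 2. Fabp5, the other detected carrier of this group, passed in no comparison.

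The enzymes that interconvert retinol and retinal moved in both directions, and 12 of 17 besides Dhrs3 were tested. For the combination against BSA 6 of the 12 were higher (Rdh5, Rdh10, Rdh13, Adh1, Adh5 and Adh7) and 1 was lower (Dhrs9), beside 21.9% and 17.3% of all probes. Rdh10, the retinol dehydrogenase whose reaction Dhrs3 reverses, read −0.82, −0.77 and −0.89 in BSA, −0.68, −0.85 and −0.96 with Rspo2, −1.07, −1.17 and −0.67 with Wnt3a, and −0.13, −0.04 and −0.17 with both on its brighter probe (A_52_P59318). All combination arrays lay above all others. The combination exceeded Wnt3a by 0.86 ± 0.12 (SE; adjusted p = 0.00275) on that probe and by 0.85 ± 0.10 (adjusted p = 0.000626) on the other, and the interactions were 0.86 ± 0.17 (adjusted p = 0.0187) and 0.75 ± 0.14 (adjusted p = 0.0124). Thus Rdh10 rose by under 2-fold where Dhrs3 was 3.09-fold lower (combination against Wnt3a). Within slide 3 the Rdh10 differences were 0.56 and 0.70, and with slide in the model the interactions were 0.41 and 0.52 (adjusted p = 0.25 and 0.228). Rdh10 was named after its values were seen, as were Rdh5, Adh1 and Adh7.

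Rdh5, another retinol dehydrogenase, read 1.09, 0.94 and 0.95 in BSA and 1.98, 1.91 and 1.87 in the combination, a difference of 0.92 ± 0.08 (SE; adjusted p = 1.1e-05). Rspo2 alone differed from BSA by 0.22 ± 0.08 (adjusted p = 0.065), Wnt3a alone by 0.44 ± 0.08 (adjusted p = 0.00236), and the interaction did not pass (0.26 ± 0.11; adjusted p = 0.144). Adh1, an alcohol dehydrogenase that also oxidizes retinol, rose with each single treatment. On its brighter probe (A_52_P629895) it exceeded BSA by 0.96 ± 0.10 under Rspo2 (adjusted p = 0.000858), by 0.71 ± 0.10 under Wnt3a (0.000892) and by 0.74 ± 0.10 in the combination (0.000228). The combination differed from Wnt3a by 0.04 and from Rspo2 by −0.22 (adjusted p = 0.885 and 0.152), and the interaction was −0.92 ± 0.14 (adjusted p = 0.00425). The second Adh1 probe gave 0.84, 0.38 and 0.49 for the same differences and −0.72 for the interaction (adjusted p = 0.0164). Adh7 was higher than in BSA by 0.32, 0.58 and 0.72 with Rspo2, Wnt3a and both (adjusted p = 0.0224, 0.000665 and 5.27e-05).

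Probes of some enzymes disagreed. Rdh14 was called lower under Wnt3a (−1.10 ± 0.12; adjusted p = 0.000236) and in the combination (−1.51 ± 0.12; adjusted p = 7.09e-06) than in BSA on A_52_P169198, while the brighter A_51_P370380 gave 0.17 and −0.05 (adjusted p = 0.186 and 0.689). For the receptor coactivator Ncoa2, the dim A_51_P478593 had an interaction of 1.04 ± 0.19 (adjusted p = 0.0123), while the 2 brighter probes gave −0.15 and 0.03 (adjusted p = 0.6 and 0.905), and normexp background correction turned the dim probe's sign (−0.45). The Rdh14 interaction was −0.48 on the brighter probe (limma, adjusted p = 0.0477) and 0.26 on the other, where it did not pass. Which transcript each probe reads was not analysed here.

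Of the retinoid X receptors, Rxra passed lower than BSA in all 3 treated groups on its brighter probe (−0.56, −0.52 and −0.59, each ± 0.13 SE; adjusted p = 0.0237, 0.0136 and 0.00561), while its dimmer probe gave 0.04, 0.00 and −0.19 and passed in none. Rxrb passed in none on its brighter probe, and Rxrg was not detected. Of 6 receptor cofactors, Ncoa1 fell in all 3 treated groups, by 0.45 on the log2 scale in the combination (adjusted p = 0.000609), and the other 5 passed in no comparison on their brightest probes.

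Among 10 genes listed as retinoic acid targets, 6 were tested. For the combination against BSA Enpp2 and Meis1 passed higher and Tgm2 lower, beside 21.9% and 17.3% of all probes. Enpp2, whose product autotaxin makes lysophosphatidic acid, was among the leading genes of the study of these arrays, so its place in the count is no independent evidence of direction. Its intensities were 79.4, 74.4 and 64.6 units in BSA, 70.5, 39.7 and 33.2 with Rspo2, 122, 119 and 87.4 with Wnt3a, and 569, 598 and 727 with both. Enpp2 was higher in the combination than in BSA by 3.21 ± 0.20 (SE; 9.28-fold; adjusted p = 1.25e-06), and its interaction was 2.71 ± 0.28 (adjusted p = 0.000718; 0.00689 with slide in the model, and from 4.69e-05 to 0.914 over 25 alternatives). Tgm2, a transglutaminase, had a combination minus BSA difference of −0.62 ± 0.16 (adjusted p = 0.0102) on its brightest probe, while its other 2 probes gave −0.54 and −0.48 (0.0642 and 0.0939). Meis2 and Rarres2 passed in no comparison on their brightest probes, and Stra8, Hoxb1, Rarres1 and Cdx1 were not detected.

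**Figure D3:**
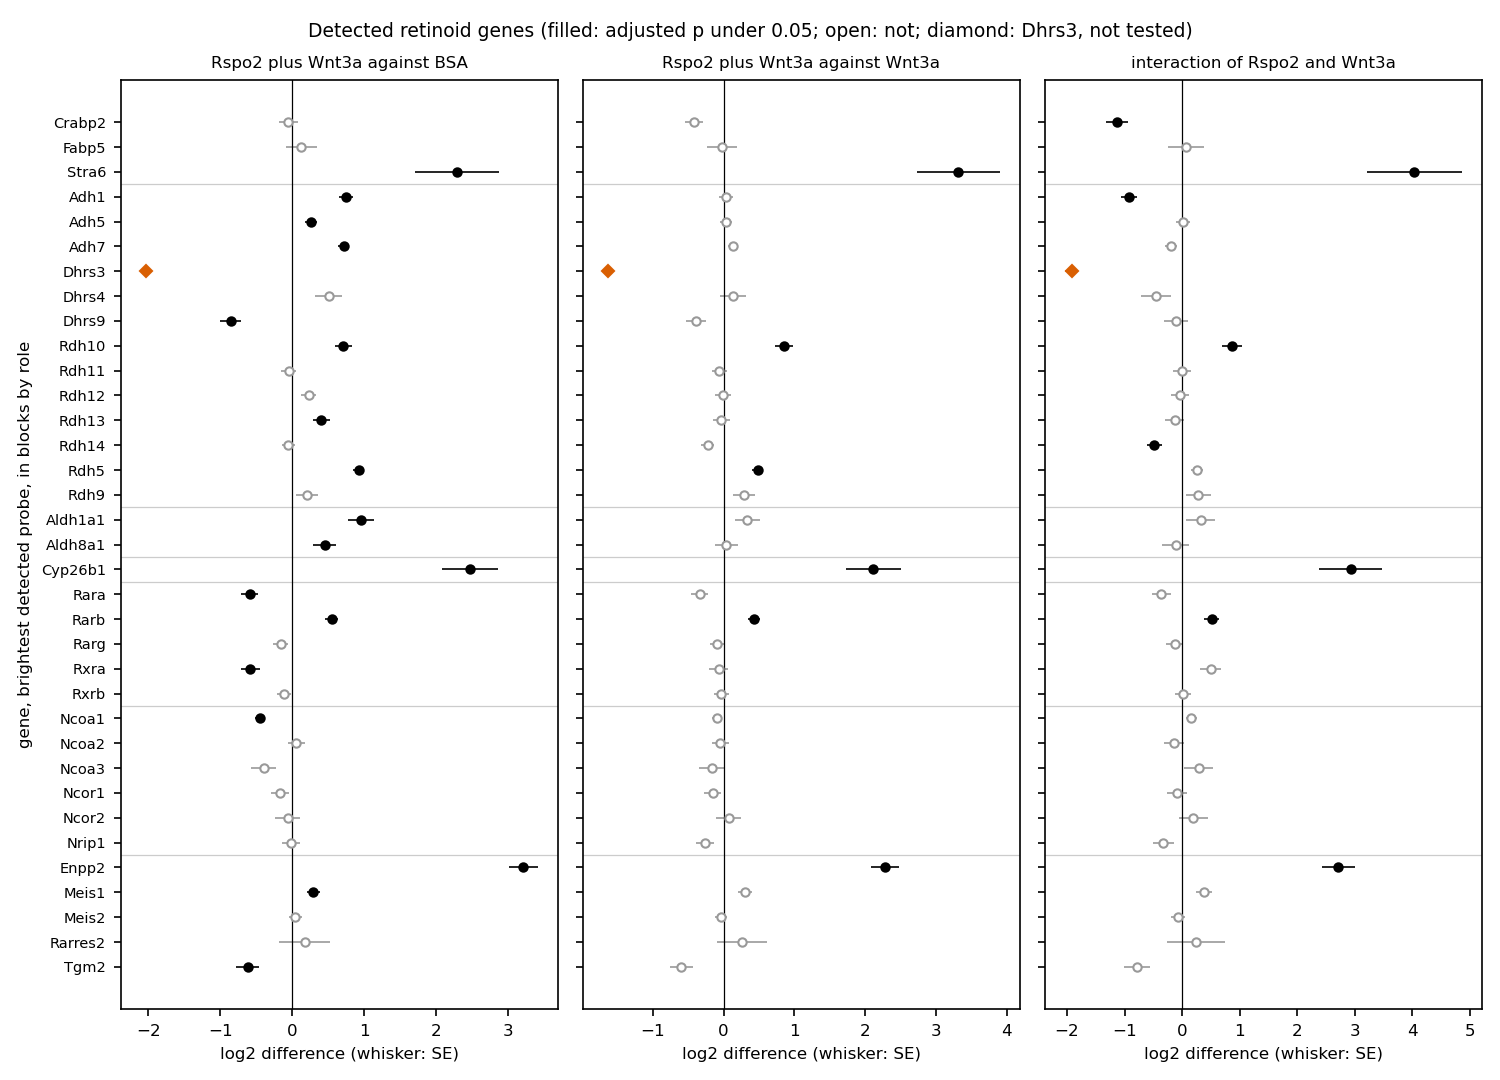
Log2 differences with their SE for 35 detected genes (6 members and 29 list genes, brightest detected probe each), in blocks by role, for the combination against BSA, the combination against Wnt3a and the interaction. Filled points passed at an adjusted p under 0.05 and open ones did not. The diamond is Dhrs3, which was chosen by its interaction in these arrays and was not tested. Dhrs3 lies furthest to the left in each panel, at −2.03, −1.63 and −1.92, and Stra6, Cyp26b1 and Enpp2 furthest to the right, the first 2 with no array above background under either single treatment.

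**Figure D4:**
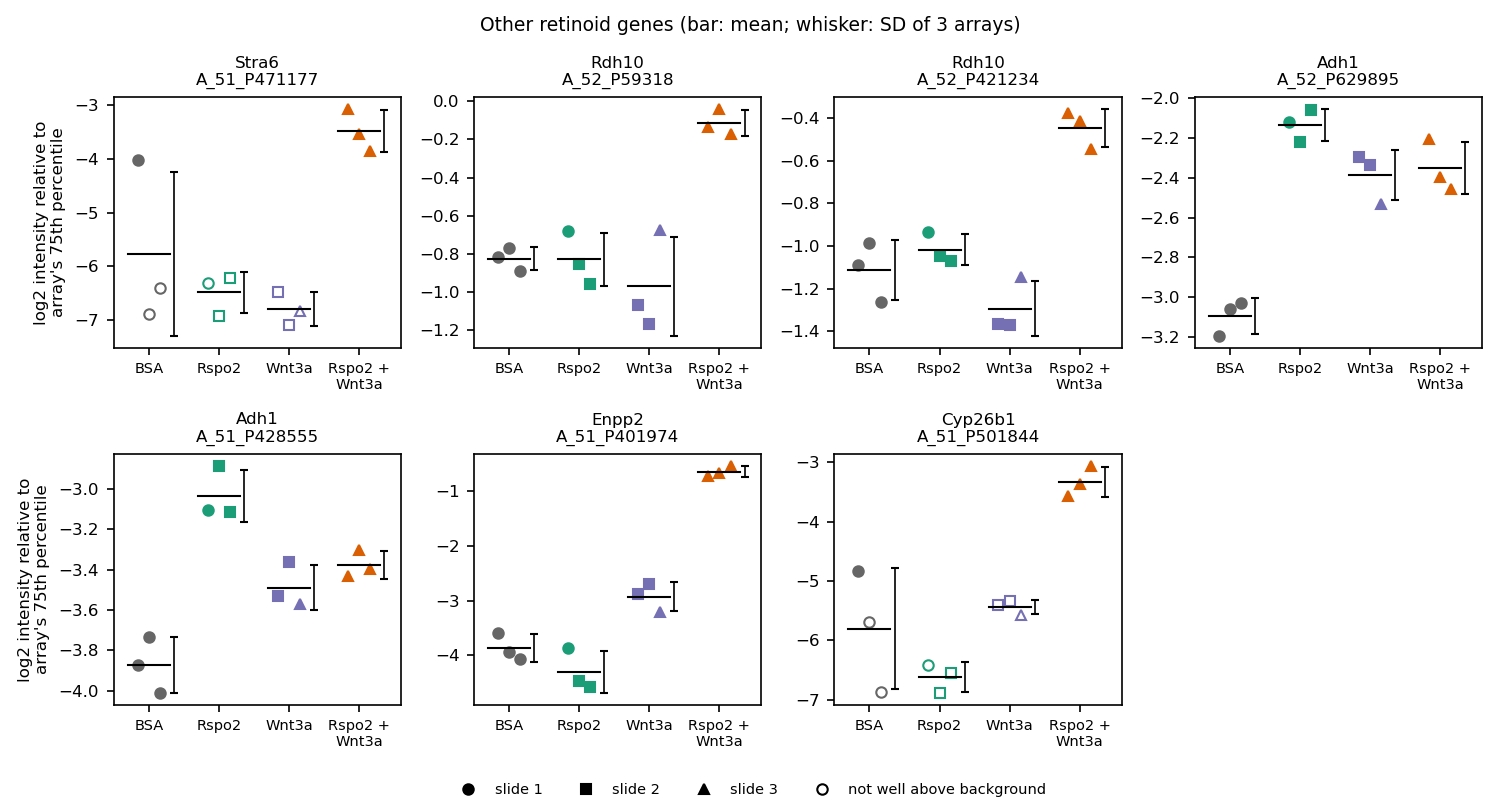
Log2 intensity relative to the array's 75th percentile by treatment group for Stra6, Rdh10, Adh1, Enpp2 and Cyp26b1, 1 point per array and 1 panel per detected probe, with slides by shape, open points where the probe was not well above background, means as bars and the SD of 3 arrays as whiskers. Stra6 and Cyp26b1 are above background on all 3 combination arrays and otherwise on BSA replicate 1, and Adh1 stands highest with Rspo2 alone.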

How the data were processed

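Total RNA of 12 C57MG monolayers was labelled and hybridized, 1 colour, to Agilent whole mouse genome arrays. The authors read the scans with Agilent Feature Extraction 9.5.3.1, and the deposited intensity values are its processed signals, background-subtracted but not scaled between arrays. The deposited table of ratios, made by the authors, divides each probe by the array's 75th percentile and served as an alternative. Genome build of the probe design is not given in the sources used here.

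Of 520548 spot values 1327 flagged as non-uniform or outlying were left out and spots of a probe averaged. The log2 intensity minus the array's 75th percentile was fitted for 22751 detected probes with limma 3.58.1 in R 4.3.3, in 1 model of 4 group means. P-values were adjusted by Benjamini-Hochberg over all detected probes. A probe passed at an adjusted p under 0.05 and was called at 2-fold or more besides. The number of arrays, 3 a group, limits the precision. The script was tested on simulated data. An exact permutation test of 3 against 3 arrays cannot go below p = 0.1, so none was used.

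The members and lists were chosen with earlier results of these data known. The rule for named genes took the members, list genes with a called probe, Axin2 and the 5 genes most correlated with Dhrs3. The other list genes named were chosen after their values were seen. Of the 13 member probes 11 had their accession matched to RefSeq. Alternatives covered background correction, scaling, filters, flagged spots, the samples fitted, slide and replicate blocks, the methods' unequal-variance t-test and leaving out each array. Promoter sequences are from RefSeq (GRCm38.p6). Probe and protein sequences were not used here. Some genes of the lists are not reported here by name.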

Additional observations from a re-analysis of the deposited data

Results flagged for a closer look

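Values are log2 interactions, the effect of Rspo2 with Wnt3a minus its effect without, in the model without slide. For Dhrs3 every Rspo2 array lay above every BSA array while every combination array lay below every Wnt3a array, and the interaction was −1.92 on the brighter probe and −1.88 on the other; this difference was not tested. Among the tested members the limma interaction passed for Crabp2 (−1.13, adjusted p = 0.00741) and for Rarb (0.51, adjusted p = 0.0338). Among the list genes it passed for Enpp2 (2.71, adjusted p = 0.000718), and for both probes of Rdh10 (0.86 and 0.75, adjusted p = 0.0187 and 0.0124) and of Adh1 (−0.92 and −0.72, adjusted p = 0.00425 and 0.0164). It also passed for 1 of 2 probes of Rdh14 (−0.48, adjusted p = 0.0477) and 1 of 3 probes of Ncoa2 (1.04, adjusted p = 0.0123). The other Rdh14 probe had the opposite sign (0.26). The fitted values for Stra6 (4.03) and Cyp26b1 (2.93) rest on Rspo2 and Wnt3a groups with no array above background and on probes detected through the combination, so they are no measure of size. With slide as a term 1 of the 6 list genes that passed on their brightest probe kept its call, Enpp2 (adjusted p = 0.00689), while Crabp2 (0.124), Rarb (0.129), Rdh10 (0.25 and 0.228), Adh1 (0.106 and 0.244) and Ncoa2 (0.138) did not, and Rarb passed in 7 of 25 alternatives (adjusted p from 0.0109 to 0.929).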

How the results depend on the processing

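The sign of Dhrs3 was kept in all 27 alternatives to each difference between groups and in all 25 to the interaction. Dhrs3 was chosen by its interaction in these same arrays, so the kept signs are a description and no independent support. That interaction was −1.48 after normexp background correction, −1.54 after normexp without spots far below local background, −1.81 with the percentile over probes above background on every array and −1.80 with slide as a term, and ran from −1.97 to −1.85 as single arrays were left out. Normexp without those spots was chosen after seeing the data, because normexp had raised the lowest 1% of signals to 278 on BSA replicate 1 and 988 on Rspo2 replicate 2, beside 56.6 to 63.9 on the others. As fitted first, normexp gave 0 called list genes in the 3 comparisons of the combination and the interaction, and turned the sign of Ncoa2 (A_51_P478593) for Rspo2 against BSA (0.42) and the interaction (−0.45), of the second Adh1 probe for Wnt3a (−0.13) and the combination (−0.10) against BSA, of Aldh1a1 for the combination against BSA (−0.047) and Rspo2 (−0.72), and, for the combination against Rspo2, of Rarb (−0.38), Stra6 (−0.22) and Cyp26b1 (−0.0036); the Rarb interaction became −0.26. Without the spots only Ncoa2 turned (0.019 and −0.055), and 1 list gene was called for the combination against BSA, against Wnt3a and in the interaction. Over all probes the median difference after normexp as fitted first was 0.15 for Rspo2 against BSA, −0.11 for the combination against Rspo2 and −0.16 for the interaction, beside 0.01, 0.03 and −0.0031 without it. Calls at 2-fold over all 22751 probes fell too. Without normexp they were 1155, 170, 608 and 438 for the combination against BSA, Wnt3a and Rspo2 and for the interaction. With normexp as fitted first they were 330, 15, 208 and 3, and without the spots 411, 55, 236 and 135.

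Counts of called member probes were 0, 0, 0, 0, 0 and 1 in the order of the report, and of list genes 0, 0, 3, 3, 3 and 3. At any fold they were 1, 1, 3, 1, 4 and 2 member probes and 4, 8, 15, 5, 10 and 6 list genes. The member call in the interaction, that of Crabp2, went to 0 under both normexp settings, with slide as a term and without Rspo2 replicate 3. Over all probes the calls in the interaction went from 438 to 3, 135, 151 and 289 under these settings. Quantile scaling called 1 member probe for Wnt3a and for the combination against BSA and 1 list gene for Rspo2 and for Wnt3a against BSA, and a random slide block 1 member probe for the combination and 1 list gene for Wnt3a against BSA. Over all probes quantile scaling called 120, 411 and 1054 for Rspo2, Wnt3a and the combination against BSA, beside 164, 573 and 1155 in the main model. The random slide block called 493 for Wnt3a and 1070 for the combination against BSA. For Wnt3a against BSA 1 list gene was also called with any probe counted, with the authors' ratios and with slide as a term. Slide as a term left 1 list gene for the combination against BSA, against Wnt3a and in the interaction, no filter left 1 in the interaction, and probes above background on all 12 arrays left 1, Enpp2, in the 3 comparisons of the combination and in the interaction. Over all probes slide as a term called 500 for the combination against BSA, 162 against Wnt3a and 151 in the interaction. No filter called 189 of 41173 in the interaction. Probes above background on all 12 arrays gave 788, 95, 411 and 247 calls of 20436, for the combination against BSA, Wnt3a and Rspo2 and the interaction. The methods' t-test, adjusted, called 1 list gene for the combination against BSA and 0 against Wnt3a. Over all probes it called 692 and 11. Where no filter or left-out array sets the change, the cause was not tested.

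With single arrays left out, called member probes ranged from 0 to 0 in 3 comparisons, from 0 to 1 for the combination against BSA (1 without BSA replicate 1) and against Rspo2 (1 without Rspo2 replicate 1), and from 0 to 1 in the interaction. Over all probes the calls in the interaction ranged from 272 to 730. They were 1074 for the combination against BSA without BSA replicate 1, and 740 against Rspo2 without Rspo2 replicate 1. List genes ranged from 0 to 1 for Rspo2 against BSA (1 without BSA replicate 3 or Rspo2 replicate 2) and for Wnt3a against BSA (1 without BSA replicate 1 or Wnt3a replicate 3), were 3 for the combination against BSA and Rspo2, and ranged from 3 to 4 against Wnt3a and from 2 to 4 in the interaction. The t-test and fits of only the groups compared give no interaction.

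With the replicate number as a block the Dhrs3 interaction was −1.92. Of 18 pairs of arrays with the same number 4 had deviations correlated above 0.1 (median 0.01), as had 9 of 36 pairs with different numbers, so the numbers only name the arrays. The block moved Rarb in the combination against Wnt3a (adjusted p = 0.0647), the Rarb interaction (0.0818) and the interaction of the first Rdh10 probe (0.0517) above an adjusted p of 0.05. Under this block only members, list genes with a called probe, Axin2, Rdh10, Adh1 and Rdh5 were followed one by one. Passes of the other list genes were not checked.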
